A study of Mus musculus with 6 samples.

Results

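Collagen transcripts were measured in mouse embryonic stem (ES) cell cultures of a hemizygous and a knockout line for Dppa4, a chromatin-associated gene of pluripotent cells. The members are all genes with a platform symbol made of Col, a type number, the letter a and a chain number, read from probe sets that the annotation assigns to exactly 1 gene. They comprised 42 genes on 82 probe sets, of 18193 genes and 45037 probe sets in all. A RefSeq gene table lists 44 genes with such symbols, and the other 2, Col28a1 and Col6a6, had no probe set of their own on this array and were not analysed here. The 3 parental samples came from the Dppa4 hemizygous ES cell line CI#84.2 and the 3 knockout samples from the Dppa4 knockout ES cell line CI#243.12. One cell line stands for each group, and both lines had feeder cells, mouse embryonic fibroblasts, under them in culture. RNA of ES cells and feeders was hybridised together, so the cell of origin of a collagen transcript was not separated, and fewer cells of a type cannot be told apart from less RNA per cell.

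Collagens are secreted proteins built from alpha chains that wind into a triple helix. Fibroblasts are the classical source of the fibril-forming types I, III and V and of the beaded filaments of type VI, whereas type IV chains form the network of basement membranes and are made by many cell types, including early embryonic ones. Before secretion the chains are hydroxylated and folded in the endoplasmic reticulum. Outside the cell, fibril collagens are trimmed by proteases and cross-linked, and collagenases cut them again.

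Values are log2 RMA values (robust multi-array average), on which a difference of 1 is a 2-fold difference. They are compared within a probe set and not between probe sets, which bind with different strength. Targeting was checked on Dppa4 itself, which read 10.30, 10.35 and 10.45 on parental and 8.68, 8.84 and 8.68 on knockout arrays, a difference of -1.63 (SE 0.08, adjusted p = 0.000112, limma). Whether this probe set covers the deleted sequence was not examined. Array medians lay between 4.21 and 4.25, and pairs of arrays correlated between 0.994 and 0.997 over probe sets. In the whole table, limma called 181 of 45037 probe sets (0.402%) at an adjusted p under 0.05, and 110 of 18193 genes (0.605%) when each gene was read on 1 probe set. Of the 13378 genes above the background level, 107 passed (0.8%).

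Upstream sequences are shown for 3 collagen genes whose values went up and down together between arrays, as described further on. They are the 250 bases before the RefSeq start, in build GRCm38.p6 and 5′ to 3′ on the gene's strand. Capitals mark matches, on either strand, to the CCAAT box (CCAAT), the TATA box (TATAAA), the GC box (GGGCGG) and the AP-1 motif (TGACTCA); the 4 motifs overlapped nowhere in these windows. Col1a2 lies on the plus strand (chr6:4505368-4505617), Col3a1 on the plus strand (chr1:45311288-45311537) and Col6a1 on the minus strand (chr10:76726045-76726294).
Col1a2: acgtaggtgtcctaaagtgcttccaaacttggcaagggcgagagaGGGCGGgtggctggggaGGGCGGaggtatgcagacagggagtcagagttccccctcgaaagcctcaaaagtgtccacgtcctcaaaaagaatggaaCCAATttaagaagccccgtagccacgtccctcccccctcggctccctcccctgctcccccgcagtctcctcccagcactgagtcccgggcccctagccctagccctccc
Col3a1: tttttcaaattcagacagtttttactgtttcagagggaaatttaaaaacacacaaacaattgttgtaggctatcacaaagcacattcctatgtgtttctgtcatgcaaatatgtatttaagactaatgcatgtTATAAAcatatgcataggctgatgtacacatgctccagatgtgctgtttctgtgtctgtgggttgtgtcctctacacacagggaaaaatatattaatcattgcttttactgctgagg
Col6a1: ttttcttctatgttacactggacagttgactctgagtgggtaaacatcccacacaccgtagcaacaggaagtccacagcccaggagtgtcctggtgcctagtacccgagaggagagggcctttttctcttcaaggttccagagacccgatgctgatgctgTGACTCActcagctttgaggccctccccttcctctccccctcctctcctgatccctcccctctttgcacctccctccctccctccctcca

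The windows share none of the 4 motifs. Col1a2 holds 2 GC boxes and 1 CCAAT box, Col3a1 holds 1 TATA box, and Col6a1 holds 1 AP-1 motif from position -90 to -84, with -1 as the last base before the start. A CCAAT box was found in 33.8% of all 32851 upstream windows of this length, a GC box in 32.7%, a TATA box in 12.4% and an AP-1 motif in 4.46%. Windows were at hand for 33 of the 42 collagen genes, 36 windows in all. Of these, 13 held a CCAAT box, 21 a GC box, 5 a TATA box and 1 an AP-1 motif.

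Col4a1 and Col4a2, which encode the common chains of the basement membrane network, are printed as a pair because they start at the same place on opposite strands. Their RefSeq starts lie so close that the first transcribed ends share 22 bases. A CCAAT box stands 32 to 28 bases before the Col4a2 start, which is base 50 to 54 of the Col4a1 transcript. It is shown with 12 bases on each side, on the plus strand (chr8:11312761-11312789).
Col4a1-Col4a2: ccgaggagctccCCAATttgttggcgctg

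Of the 42 collagen genes, each read on its probe set with the highest mean, 32 lay above the background level of 3.78 in at least 1 group mean. The same held for 13378 of all 18193 genes, a similar share. That level was set from 80 probe sets of odorant and vomeronasal receptors, genes of sensory neurons, as the 95th percentile of their mean values. The genes above it were 10 of 11 fibril-forming, 4 of 5 beaded filament, 6 of 9 network-forming, 7 of 9 fibril-associated and 3 of 4 transmembrane collagens, together with Col18a1 of the multiplexins and Col7a1 of anchoring fibrils. Those not above it were Col4a3 and Col4a4, the chains of kidney basement membrane, the chain genes Col6a5, Col8a2, Col9a2, Col11a2 and Col15a1, the skin hemidesmosome collagen gene Col17a1, Col19a1 and Col26a1. With the 99th percentile as background level, 22 genes remained above it.

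**Figure D1:**
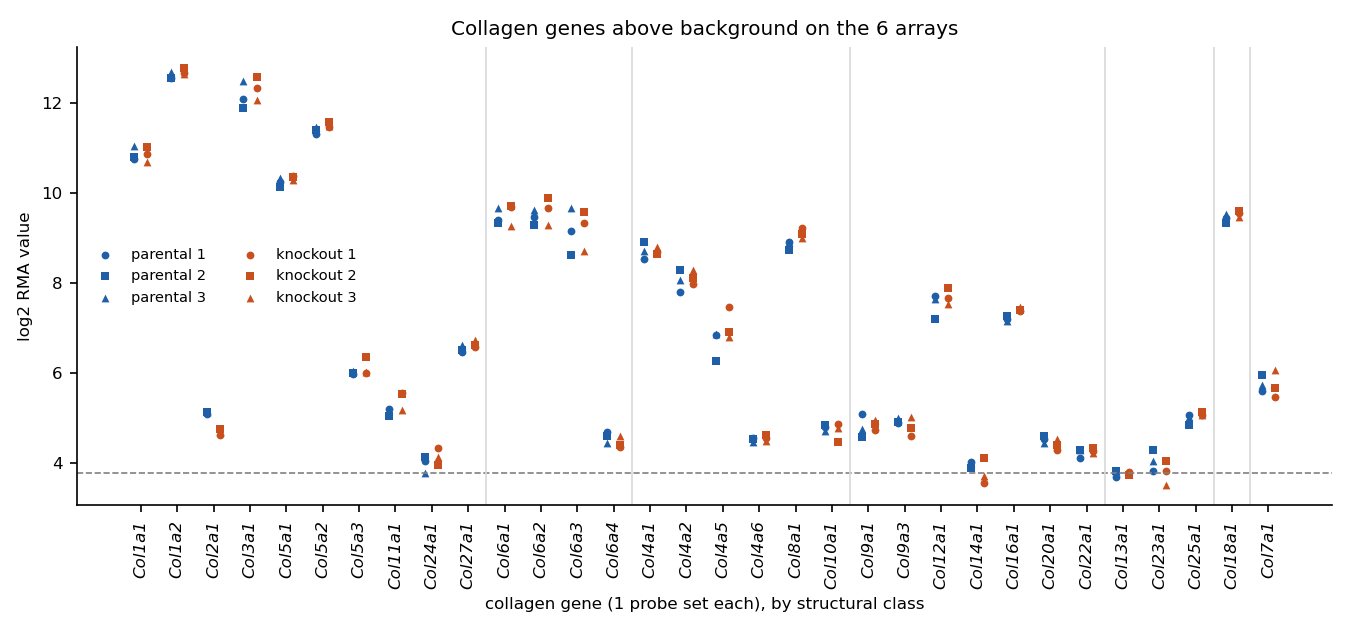
Log2 RMA values of the 32 collagen genes above background, 1 probe set each, in structural classes separated by vertical lines. Blue marks are parental and orange marks knockout arrays, with a circle, square and triangle for replicates 1, 2 and 3; the dashed line is the background level of 3.78. Heights of different genes are not comparable, and the groups overlap for all but 3 of these genes.

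No collagen gene passed the test between knockout and parental arrays: 0 of 42 had a limma adjusted p under 0.05, beside 0.605% of all genes. At an unadjusted p under 0.05, 3 of the 42 were higher in knockout cells, against 4.66% of all genes, and 1 was lower, against 6.37%. The groups did not overlap for 2 genes that were higher (7.23% of all genes) and 2 that were lower (9.11%). Among genes above background the corresponding shares were 5.68% and 7.38% at the unadjusted threshold and 8.49% and 10.2% without overlap. The 2 higher genes were Col8a1 and Col16a1, and the 2 lower ones Col2a1 and, below background, Col15a1. The median difference, knockout minus parental, was 0.03 over the 42 genes and 0.00 over all genes; 24 of the 42 were higher, against 49.9% of all genes. Among those above background it was 0.08 over 32 genes, 21 of them higher, and 0.01 over 13378 genes, 51.7% of them higher. The 95% intervals of all 32 lay within a 2-fold difference in either direction, and those of 28 within a 1.5-fold difference.

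**Figure D2:**
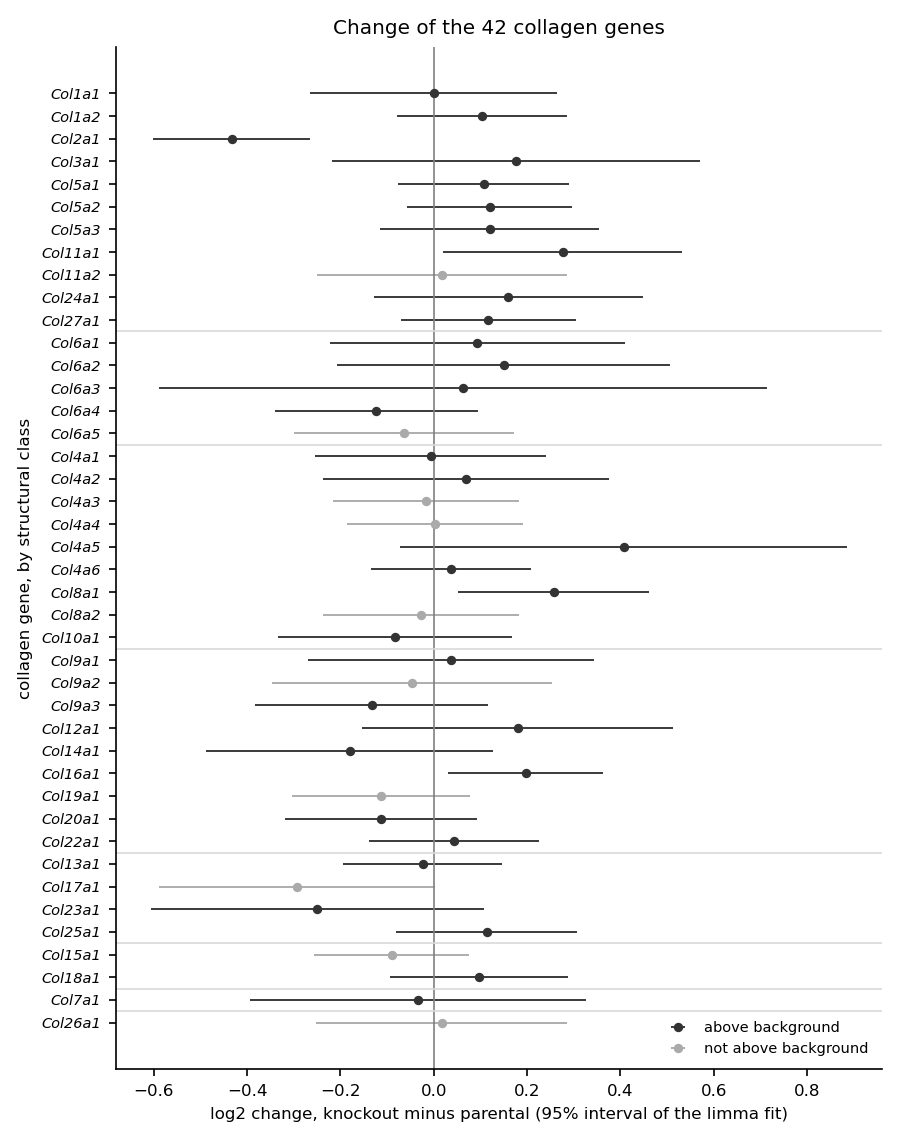
Log2 difference, knockout minus parental, of the 42 collagen genes with the 95% interval of the limma fit, in structural classes separated by horizontal lines. Black points are the 32 genes above background and grey points the other 10; Col2a1 stands farthest to the left at -0.43 and Col4a5 farthest to the right at 0.41.

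Among fibril-forming collagens, the chains of types I and III had overlapping values in both lines. Col1a1, which encodes the alpha 1 chain of type I collagen, read 10.76, 10.80 and 11.06 on parental and 10.88, 11.04 and 10.70 on knockout arrays. Its groups overlapped fully, with means of 10.87 ± 0.16 and 10.87 ± 0.17 (SD, n = 3) and a 95% interval of the difference from -0.26 to 0.26. Its partner Col1a2 read 12.56, 12.56 and 12.70 against 12.68, 12.79 and 12.66, a difference of 0.10 (SE 0.08, adjusted p = 0.763, limma). The knockout values lay mostly at the upper end of the parental ones, and the interval ran from -0.08 to 0.29. Col3a1, the type III chain that forms fibrils together with type I, differed by 0.18 (SE 0.17, adjusted p = 0.817), with parental values from 11.89 to 12.49 and knockout values from 12.08 to 12.59. Its dimmer probe set gave 0.42 over a wider spread, from 7.28 to 8.18 on parental and from 7.66 to 8.49 on knockout arrays, again with overlap.

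Type V collagen, whose chains start fibrils and set their width, had differences of like size on both chains, neither past the test. Col5a1 read 10.25, 10.14 and 10.34 on parental and 10.38, 10.37 and 10.30 on knockout arrays, a difference of 0.11 (SE 0.08, adjusted p = 0.752). Col5a2 read 11.33, 11.40 and 11.48 against 11.48, 11.59 and 11.50, a difference of 0.12 (SE 0.08, adjusted p = 0.702). For both chains the lowest knockout value lay within the parental range or at its top. The difference between the chains' differences was -0.01, within the spread of the per-array distance between the 2 probe sets (SD 0.09 on parental and 0.06 on knockout arrays).

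Col2a1, the fibril chain of cartilage, had the lowest adjusted p of the collagen genes. It read 5.09, 5.15 and 5.15 on parental and 4.63, 4.76 and 4.70 on knockout arrays. All 3 knockout values lay below all parental values, at 5.13 ± 0.03 and 4.70 ± 0.07 (SD, n = 3). The difference of -0.43 (SE 0.07, 95% interval from -0.60 to -0.27) is a knockout over parental ratio of 0.74 and missed the threshold with an adjusted p of 0.0619 (limma). An exact two-sided permutation test gave p = 0.1, which with 3 arrays a group it cannot go below. Col2a1 passed in a limma fit of probe sets above background only (adjusted p = 0.0491) and with gene means in place of single probe sets (0.0362). In both fits its difference stayed at -0.43, and only the set of rows fitted and adjusted over changed. It missed the threshold in the other 12 alternatives. Only 1 probe set reports Col2a1, and the 99th percentile background level of 4.90 lies between its group means. Of the cartilage and bone markers, Acan, the cartilage proteoglycan gene, read 4.32 in parental and 4.14 in knockout cells (adjusted p = 0.783), Sox9, a cartilage transcription factor, 4.95 and 5.01 (0.870), and Matn1 lay below background.

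Col11a1, the minor chain of type II and type V fibrils, was the second largest among higher values in knockout cells. It read 5.22, 5.06 and 5.18 on parental and 5.56, 5.54 and 5.19 on knockout arrays, a difference of 0.28 (SE 0.11, unadjusted p = 0.0375, adjusted p = 0.490, limma). Knockout replicate 3 fell within the parental range and the other knockout values above it. Its other probe set gave 0.20. The remaining members above background, Col5a3, Col24a1 and Col27a1, differed by 0.12, 0.16 and 0.12, with adjusted p of 0.786, 0.767 and 0.731.

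**Figure D3:**
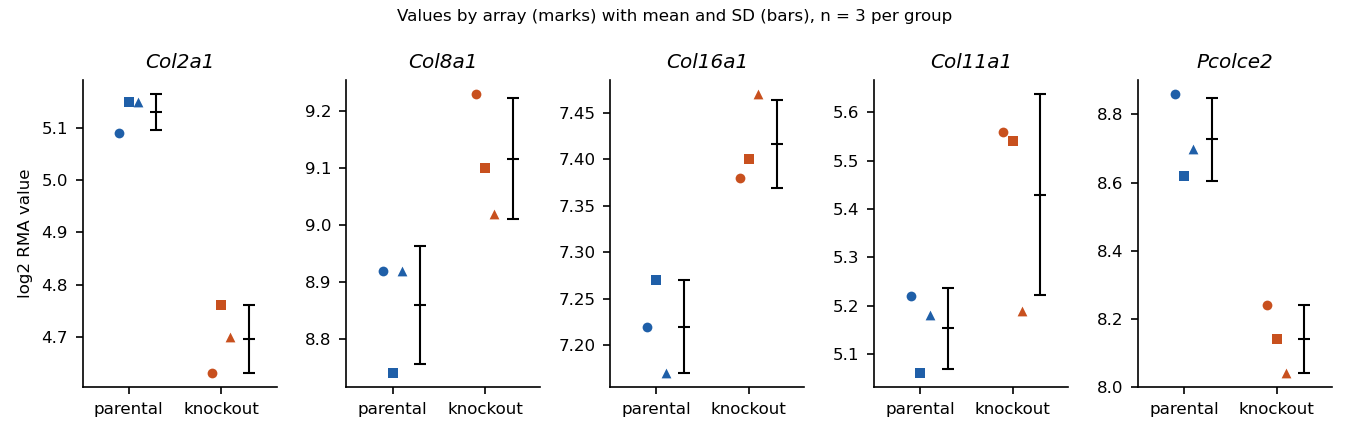
Log2 RMA values of 4 collagen genes and of Pcolce2, a gene of procollagen processing, by group; circle, square and triangle are replicates 1, 2 and 3, and the bars give mean and SD of 3 arrays, with a separate scale for each gene. The groups do not overlap for Col2a1, Col8a1, Col16a1 and Pcolce2, and they do for Col11a1.

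The network-forming class includes the 6 type IV chains. Col4a1 read 8.54, 8.93 and 8.71 on parental and 8.69, 8.66 and 8.81 on knockout arrays, and Col4a2 read 7.81, 8.29 and 8.08 against 7.98, 8.11 and 8.30. The differences were -0.01 (SE 0.11, adjusted p = 0.991) and 0.07 (SE 0.13, adjusted p = 0.919, limma), with full overlap. Both chains were highest on parental replicate 2 and knockout replicate 3 within their groups, as were 17.6% of all genes above background. The distance between the 2 probe sets varied by 0.22 over the 6 arrays, while Col4a1 itself varied by 0.39 and Col4a2 by 0.49.

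Col4a5, a chain of a further type IV network, had the largest difference among collagen genes with higher values in knockout cells, and a pooled SD among the largest 3 of the 32 above background. It read 6.86, 6.27 and 6.87 on parental and 7.48, 6.93 and 6.81 on knockout arrays. The groups overlapped, and the difference of 0.41 (SE 0.21, 95% interval from -0.07 to 0.89) had an adjusted p of 0.601 (limma). Its second probe set gave 0.17. Within the groups, Col4a5 was lowest on parental replicate 2 and knockout replicate 3, where Col4a1 and Col4a2 were highest. Col4a6, the neighbour and partner of Col4a5, read between 4.48 and 4.64 on all arrays and differed by 0.04 (adjusted p = 0.925). The distance between the Col4a5 and Col4a6 probe sets varied by 1.20 over the arrays.

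Col8a1 encodes a chain of the short-chain network collagen of vessels and cornea. It read 8.92, 8.74 and 8.92 on parental and 9.23, 9.10 and 9.02 on knockout arrays, so that every knockout value lay above every parental value. The difference of 0.26 (SE 0.09, 95% interval from 0.05 to 0.46) had an unadjusted p of 0.0201 and an adjusted p of 0.409 (limma). Its other 2 probe sets gave 0.08 and 0.19, both with overlap. Its partner Col8a2 was not above background, and Col10a1, the collagen of hypertrophic cartilage, differed by -0.08 (adjusted p = 0.871).

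The beaded filament class held the collagen gene with the widest spread between arrays of one line, Col6a3. Col6a3, which encodes the large alpha 3 chain, read 9.16, 8.63 and 9.67 on parental and 9.35, 9.59 and 8.71 on knockout arrays. Parental replicate 2 and knockout replicate 3 were low and parental replicate 3 and knockout replicate 2 high, so the groups overlapped almost completely. The difference of 0.06 (SE 0.28, adjusted p = 0.971, limma) had an interval from -0.59 to 0.71. Col6a1 read 9.40, 9.34 and 9.67 against 9.69, 9.72 and 9.28, and Col6a2 read 9.47, 9.30 and 9.64 against 9.67, 9.90 and 9.29. Their differences were 0.09 and 0.15 (adjusted p = 0.889 and 0.830), and the arrays of each line stood in the same order for both genes. The distance between the Col6a1 and Col6a2 probe sets varied by 0.22 over the 6 arrays, and that between Col6a1 and Col6a3 by 0.71. Col6a4, a less widely expressed relative, differed by -0.12 (adjusted p = 0.763).

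Fibril-associated collagens sit on the surface of fibrils and link them to other matrix. Col16a1 read 7.22, 7.27 and 7.17 on parental and 7.38, 7.40 and 7.47 on knockout arrays. All knockout values were higher, by 0.20 on average (SE 0.07, 95% interval from 0.03 to 0.36), with an unadjusted p of 0.0255 and an adjusted p of 0.442 (limma). Col12a1, found in tendon and skin, differed by 0.18 with overlap (7.71, 7.21 and 7.65 against 7.67, 7.89 and 7.55; adjusted p = 0.774), and its second probe set above background gave 0.20. Col14a1, close to background, differed by -0.18 (adjusted p = 0.751), Col9a3 by -0.13 (0.777), Col20a1 by -0.11 (0.770), Col22a1 by 0.04 (0.916) and Col9a1 by 0.04 (0.963).

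The remaining classes were small. Col18a1, the basement membrane collagen that releases endostatin, read 9.45, 9.35 and 9.55 on parental and 9.56, 9.61 and 9.47 on knockout arrays, a difference of 0.10 (adjusted p = 0.788, limma). Its other probe set went the other way without overlap, from 9.34, 9.27 and 9.35 to 9.21, 9.19 and 9.16, a difference of -0.13. Neither passed the test, and which transcripts each probe set reports was not examined. Among transmembrane collagens, Col23a1 differed by -0.25 (SE 0.16, adjusted p = 0.691), with parental values from 3.83 to 4.29 and knockout values from 3.53 to 4.06. Col25a1 differed by 0.11 (0.750), Col13a1 by -0.02 (0.957) and Col7a1, the anchoring fibril collagen of skin, by -0.03 (0.972).

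Several probe sets above background were present for 14 collagen genes. In 11 of them no 2 probe sets had differences of opposite sign, and Col4a1, Col18a1 and Col27a1 were the others. The same array was highest among parental replicates on every probe set for 10 genes, and likewise among knockout replicates for 10 genes. Both held for 8 of the 14. These counts concern the highest array only, and the order of the other arrays could differ between probe sets, as among parental arrays for Col1a1.

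Arrays of the same line also stood in a shared order across several collagen genes. Over the 32 collagen genes above background, 9 were highest both on parental replicate 3 among parental arrays and on knockout replicate 2 among knockout arrays, against 15.3% of all genes above background. The order lay mostly in 2 classes, and Col18a1, a multiplexin, had it too. Among fibril-associated genes 0 of 7 had it and among network-forming genes 0 of 6. These classes are too small to set apart from the 15.3% of all genes. Of the 14 fibril-forming and beaded filament genes above background, 8 had it. They included Col1a1, Col1a2, Col3a1, Col5a2, Col6a1, Col6a2 and Col6a3. The genes were grouped by structural class, but the pattern, and with it the choice of these 2 classes, was noticed in these values and was not tested. When array medians were subtracted, 6 of the 14 had this order, against 12.2% of all genes above background; when quantile normalization was applied again, 10 had it, against 18.3%. Conversely, 6 of the 14 were lowest on both parental replicate 2 and knockout replicate 3 (14.9% of all genes above background), the arrays on which Col4a1 and Col4a2 were highest.

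The spread within a line was large for some of these genes. The pooled SD within groups was 0.49 for Col6a3, larger than for 99.1% of genes above background, 0.28 for Col3a1 (95.2%) and 0.35 for Col4a5 (97.6%). It was 0.08 for Col1a2, larger than for 24.8%, and 0.05 for Col2a1 (10.6%). Of the 32 collagen genes above background, 19 had a pooled SD above the median of 0.11 of all such genes.

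**Figure D4:**
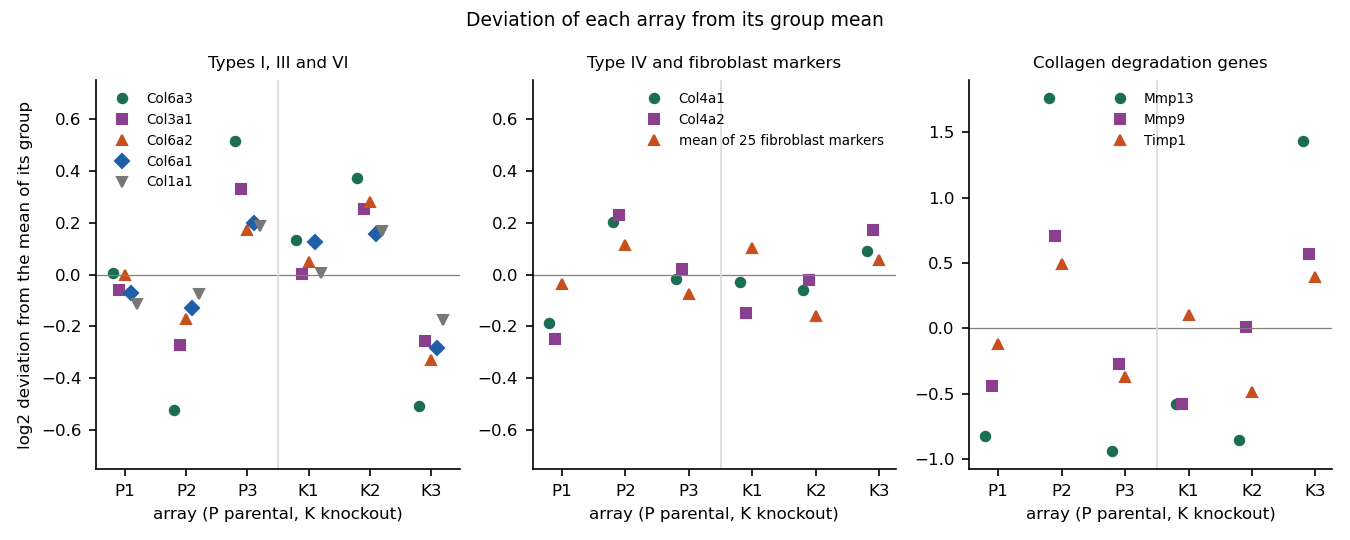
Log2 deviation of each array from the mean of its own group, for type I, III and VI chains (left), for Col4a1, Col4a2 and the mean of 25 fibroblast markers (middle) and for 3 degradation genes (right, on a wider scale); P is parental, K knockout, followed by the replicate number. Col6a3 and Col3a1 stand above 0 on P3 and K2 and below 0 on P2 and K3, where Mmp13, Col4a1 and Col4a2 stand above 0.

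Fibroblast markers other than collagens were read beside this order. Of 26 listed markers 25 were measured, all of them above background, and 0 passed the test of limma; 2 were higher and 0 lower at an unadjusted p under 0.05, against 5.68% and 7.38% of all genes above background. The difference was above 0 for 23 of the 25, with a median of 0.10, beside 21 of 32 collagen genes (median 0.08) and 51.7% of all genes above background; the part of the feeder share in the collagen values was not tested. Their mean read 10.02, 10.17 and 9.98 on parental and 10.27, 10.01 and 10.22 on knockout arrays. Parental replicate 3 and knockout replicate 2, where the type I and III chains and Col6a1, Col6a2 and Col6a3 were highest, thus had the lowest means of their groups. Single markers were split: Postn, Fn1 and Tgfbi were highest on both of these arrays, while Dcn, Twist2, Thy1 and others were lowest on both. With the mean of the markers as a covariate, 0 collagen genes passed and 5 were higher and 2 lower at an unadjusted p under 0.05. The share over all genes was not taken in that fit, so these counts are not read as a result about collagens.

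Of the 64 genes listed for collagen processing, 59 were measured, 51 of them above background. Their median difference was 0.08; 1 of the 59 fell, 0 rose and the rest did not pass the test, beside 0.605% of all genes called. The difference was above 0 for 48 of the 59, against 49.9% of all genes. At an unadjusted p under 0.05, 5 of the 59 were higher (4.66% of all genes) and 1 was lower (6.37%). The list and its members were drawn up with earlier results of these data known, and 7 of the fibroblast markers are also in it.

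The gene that fell was Pcolce2, which encodes an enhancer of the protease that removes the carboxyl propeptide of procollagen. It read 8.86, 8.62 and 8.70 on parental and 8.24, 8.14 and 8.04 on knockout arrays. No value overlapped, at 8.73 and 8.14 on average, and the difference was -0.59 (SE 0.09, adjusted p = 0.0471, limma). The call lay close to the threshold and was lost when any 1 of the 6 arrays was left out. Leaving out parental replicates 1, 2 and 3 in turn gave an adjusted p of 0.181, 0.0899 and 0.154, and leaving out knockout replicates gave 0.118, 0.136 and 0.195 in the same order. It was also lost with array medians subtracted (0.0513), with the replicate block (0.130) and with the fibroblast covariate (0.122). The difference itself moved little in these fits, to -0.58, -0.59 and -0.57, and lay between -0.64 and -0.52 when 1 array was left out.

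No gene of the other steps passed the test. None of the 15 genes of prolyl and lysyl hydroxylation passed, with a median difference of 0.06, and P4hb, a subunit of prolyl 4-hydroxylase, differed by 0.05 (adjusted p = 0.888, limma). In folding and export 0 of 8 passed, with a median of 0.12; Serpinh1, the collagen chaperone, differed by 0.09 (0.898) and Mia3, needed to load collagen into transport carriers, by 0.30 (0.222). In cross-linking 0 of 4 passed (median 0.13), among fibril partners 0 of 7 (0.11) and among collagen receptors 0 of 9 (0.08). Lox, the lysyl oxidase gene, differed by 0.23 (0.620). In propeptide cleavage 1 of 6 passed, Pcolce2, and the median was 0.07. The names in this paragraph other than Pcolce2 were chosen after their values were seen.

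Among 10 degradation genes 0 passed, with a median difference of 0.08, but arrays of the same line differed widely. Mmp13, an interstitial collagenase, read 8.19, 10.78 and 8.07 on parental and 8.76, 8.49 and 10.78 on knockout arrays. Parental replicate 2 and knockout replicate 3 stood far above the others, and they were the arrays with the lowest Col6a3 and Col3a1 values of their groups. Its pooled SD of 1.40 was exceeded by 0 of the 13378 genes above background. Between the lines it differed by 0.33 (SE 0.79, adjusted p = 0.939, limma). Mmp9, a gelatinase, read 5.81, 6.96 and 5.98 against 5.68, 6.27 and 6.83, and Timp1, an inhibitor of these proteases, 11.26, 11.87 and 11.01 against 11.49, 10.90 and 11.78, each highest on the same arrays of its line. Being highest on both of these arrays was common, with 17.6% of all genes above background and 5 of the 32 collagen genes. Mmp13, Mmp9 and Timp1 were named after their values were seen. What set the arrays apart was not tested.

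Marker lists of other cells were read beside the collagens. The mean of the 10 ES cell markers ran from 10.87 to 10.92 on parental and from 10.81 to 10.86 on knockout arrays, and 0 passed. Without overlap between groups, 4 of the 10 were lower and 1 was higher, against 10.2% and 8.49% of all genes above background. Nanog had the largest difference, -0.49 (adjusted p = 0.122, limma). For extra-embryonic endoderm, another possible source of type IV collagen, 11 of 12 markers were above background, beside 13378 of all 18193 genes. None passed, and the mean ran from 5.66 to 5.95 and from 5.77 to 5.95. The group means of Sox7, Sox17, Foxa2, Gata6, Afp and Cited1 lay below the 99th percentile background level of 4.90. Those of Plat, Dab2, Pdgfra, Thbd and Ttr lay above it, and Pdgfra is also among the fibroblast markers. Gata4 was not above background. Smooth muscle (5 of 5 above background, means from 7.72 to 7.83 and from 7.36 to 7.90), cartilage and bone (5 of 7 measured, 3.92 to 3.97 and 3.89 to 4.08) and skin epithelium (3 of 4, 3.82 to 3.94 and 3.83 to 3.89) had 0 calls. Of the cartilage, bone and skin markers, only Sox9 had group means above the level of 4.90. In the endothelium list, 3 of 5 markers were above background and the means ran from 4.64 to 4.77 on parental and from 4.18 to 4.22 on knockout arrays. Tek, a receptor tyrosine kinase gene, fell from 5.98 to 4.42 (adjusted p = 0.00469, limma), while Cdh5, which defines endothelium, was below background in both lines. Pecam1, an adhesion gene, read 6.46 and 5.76, without overlap and with an adjusted p of 0.169, and Kdr, a growth factor receptor gene, read 4.80 and 4.57, with overlap (0.593). All 3 markers of this list above background thus had lower means in knockout cells, of which only Tek passed. The part of these cells in the collagen values was not tested.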

How the data were processed

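Log2 expression values of 45101 probe sets on 6 arrays, as deposited by the authors, had been normalized by RMA, per the submitters' processing notes. The software and the chip definition behind them were not given in the sources used here. The log2 scale was read from the values (2.12 to 13.98). Because RMA equalises the distributions of the arrays, a change common to most transcripts is removed. After 64 control probe sets were left out, 45037 were tested, 34945 of them with 1 gene, 932 with several and 9160 with none listed. Gene IDs of 34741 matched a RefSeq table (GRCm38.p6), used for symbols and upstream sequences. Differences between the lines came from lmFit and eBayes of limma 3.58.1 (R 4.3.3) without covariates. Two-sided p-values were adjusted by Benjamini and Hochberg's method over all 45037 probe sets, and the fit was tested on simulated data. No 2 arrays were identical. The labels number replicates without naming separate cultures, so the p-values rest on a spread between arrays that may be technical only, and 3 arrays per group limit the precision. The members, lists and classes were chosen with earlier results of these data known. Named were collagen genes that passed, the 5 largest differences in each direction above background, partner chains above background, genes whose probe sets differed in sign by more than 0.2 and processing genes that passed; other names were chosen after their values were seen.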

Additional observations from a re-analysis of the deposited data

How the results depend on the processing

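The 14 alternatives were another quantile normalization, median subtraction, the replicate block, a robust prior that follows the intensity, a filter on background, probe sets without x_at and s_at endings, gene means, the fibroblast marker mean as a covariate and leaving out each of the 6 arrays. Collagen genes that passed numbered 0 (limma), and 1, Col2a1, with gene means or with probe sets above background only; without 1 array the count was 0 each time. At an unadjusted p under 0.05, the 3 higher genes became 5 with the covariate and 1 to 4 without 1 array. The 1 lower gene became 2 with the covariate, the robust prior, gene means or quantile normalization, and 1 to 4 without 1 array. Shares over all genes at this threshold were not taken in the alternatives, so these counts do not speak for collagens in particular. The median difference of 0.03 was 0.082 with probe sets above background only and 0.02 to 0.04 without 1 array. Of 22 named collagen genes, 8 had differences of both signs over the alternatives, none of them called; the largest was 0.38 in size. The call of Pcolce2 among processing genes was lost with medians subtracted, with the replicate block and without any 1 array, a count of 0 in each. That call was also lost with the fibroblast covariate (adjusted p = 0.122, limma). Called probe sets in the whole table numbered 181, against 312 with the robust prior, 88 with the replicate block and 70 to 112 without 1 array. Equal replicate numbers did not pair the arrays: correlations of deviations were 0.112, -0.364 and -0.287, against 0.379 for parental replicate 3 with knockout replicate 2 and 0.371 for parental replicate 2 with knockout replicate 3. The scaling settings of the array order were chosen after the data were seen.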
